A study of Mus musculus with 6 samples.

Results

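The allelic counts of Abl.2, a clone of immortalised mouse B cells, were compared between the maternal and the paternal copy of each gene. Autosomal genes were included when both Abl.2 libraries held at least 20 counts with the alleles summed. This gave 9004 of the 18663 autosomal genes of the deposited allele table, 583 of them on chromosome 4, 470 on chromosome 10 and 7951 on the other 17 autosomes. All 3 clones carry the 129S1/SvImJ x CAST/EiJ F1 genotype, and the labels give female as the sex of Abl.2 and of Abl.4 and male for Abl.3. The cells were control cells in medium with 1% DMSO, collected on day 2. The series concerns how expression from a single allele is set and what DNA methylation contributes. Each line is 1 clone with 2 libraries that the labels call library preparation replicates, so the p-values measure only the spread between preparations. Abl.3 and Abl.4 enter only where Abl.2 was compared with them.

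Most autosomal genes of a diploid cell are transcribed from the maternal and the paternal copy. A minority use mainly one copy: imprinted genes always the copy of the same parent, and genes of random monoallelic expression a copy that is chosen in a cell and kept by its descendants, so that clones differ. Sequence differences between the parental strains can also make the alleles unequal, to any degree, and such an inequality can recur in every clone of the cross. In a clone, a whole chromosome can also lean to one parent when the copies are present in unequal number.

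The measure throughout is the maternal share, the maternal counts divided by the counts of both alleles, where 0.5 means equal counts. A share of at least 0.9 or at most 0.1 in the mean of the libraries is called a strong maternal or a strong paternal bias. In bulk RNA, fewer cells using an allele and less RNA from that allele per cell cannot be told apart. The starts of 4 genes from RefSeq (GRCm38.p6) are printed because their genes had a strong bias in Abl.2 and shares between 0.3 and 0.7 in the other clones. Each runs 5′ to 3′ on the gene's strand from 250 bases before to 50 bases after the RefSeq start, with every CG, the letters at which mouse DNA is mainly methylated, in capitals. At least 1 CG occurs in 94.2% of the table's 27025 promoters. Smad3 (chr9:63757945-63758244, minus strand) has 25 CG and Spry1 (chr3:37639697-37639996, plus strand) has 29. Lef1 (chr3:131110047-131110346, plus strand) has 18 and Tet2 (chr3:133544341-133544640, minus strand) has 57.
Smad3: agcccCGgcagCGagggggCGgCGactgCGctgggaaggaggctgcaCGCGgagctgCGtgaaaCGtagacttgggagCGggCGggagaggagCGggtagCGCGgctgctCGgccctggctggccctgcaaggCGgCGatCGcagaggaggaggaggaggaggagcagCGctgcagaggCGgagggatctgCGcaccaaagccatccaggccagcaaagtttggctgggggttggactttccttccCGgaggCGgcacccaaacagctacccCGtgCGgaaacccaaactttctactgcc
Spry1: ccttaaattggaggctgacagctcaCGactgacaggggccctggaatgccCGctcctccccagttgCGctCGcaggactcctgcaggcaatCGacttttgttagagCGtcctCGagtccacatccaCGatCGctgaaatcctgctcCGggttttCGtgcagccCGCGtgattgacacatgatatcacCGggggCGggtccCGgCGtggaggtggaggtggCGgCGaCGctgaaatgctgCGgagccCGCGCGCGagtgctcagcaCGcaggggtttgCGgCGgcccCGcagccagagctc
Lef1: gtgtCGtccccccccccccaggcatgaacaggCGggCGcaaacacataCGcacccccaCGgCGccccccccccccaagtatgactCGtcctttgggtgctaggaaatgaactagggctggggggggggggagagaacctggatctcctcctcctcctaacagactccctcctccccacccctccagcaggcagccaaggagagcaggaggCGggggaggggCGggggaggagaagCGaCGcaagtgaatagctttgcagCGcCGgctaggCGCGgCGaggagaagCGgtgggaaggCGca
Tet2: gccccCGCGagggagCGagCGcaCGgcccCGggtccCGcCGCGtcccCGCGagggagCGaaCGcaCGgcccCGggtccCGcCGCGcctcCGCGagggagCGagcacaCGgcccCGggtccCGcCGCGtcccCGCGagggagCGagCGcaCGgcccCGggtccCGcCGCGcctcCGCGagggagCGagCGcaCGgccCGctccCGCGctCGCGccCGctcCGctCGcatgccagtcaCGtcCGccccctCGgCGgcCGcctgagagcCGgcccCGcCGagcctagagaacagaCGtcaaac

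The Abl.2 libraries held 22699395 and 26881211 allelic counts, against 18362319 to 20005324 in the other 4 libraries. A member of the 17 autosomes had a median mean coverage of 1085.5 counts, with quartiles of 315 and 2797. Of the 12 B-lineage markers, 12 were at 1 TPM or more in both Abl.2 libraries, TPM being an abundance scaled for gene length and library. Of the other lineages, 1 of 10 T-cell, 1 of 6 NK, 1 of 11 myeloid, 0 of 8 erythroid and 1 of 9 stromal and endothelial markers reached that level. They were the myeloid gene Lyz2 at 158 and 193 TPM, the NK gene Klrb1c at 14.1 and 16.1 TPM, the endothelial gene Pecam1 at 24.1 and 24.8 TPM and the T-cell kinase gene Lck at 1.79 and 1.58 TPM. The summed B-lineage markers stood at 14043 and 13596 TPM, against 159 and 193 TPM for the myeloid list and 24.1 and 24.8 TPM for the stromal and endothelial list. The defining genes Cd3g, Cd4, Ncr1, Adgre1 and Dcn were at 0 in both libraries. Any part of other cells in the allelic results was not tested. A chi-square with 1 degree of freedom comparing the allele counts of the Abl.2 libraries averaged 3.68 over 7833 genes, so they differed by more than counting noise and were kept as separate libraries.

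The alleles of the 17 autosomes were balanced as a whole and unequal gene by gene. The median share was 0.5003 in replicate 1 and 0.501 in replicate 2, and the middle 50% of genes ran from 0.454 to 0.551. The test called 3347 of 7951 genes unequal (42.1%) at an adjusted p under 0.05 in edgeR's quasi-likelihood test. The maternal allele was higher in 1706 (21.5%) and the paternal allele in 1641 (20.6%). Of the called genes 1384 lay within 0.1 of equal counts, so many calls were of small size. The median gap between the libraries was 0.0226 of the share, and 207 genes differed by 0.2 or more between them. A strong bias was found for 580 genes (7.29%), 295 maternal and 285 paternal. All 580 passed the test, which their share largely fixed. Among 3208 protein-coding genes with no overlapping gene in the annotation, 7.73% had a strong bias and 43.8% passed the test.

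**Figure D1:**
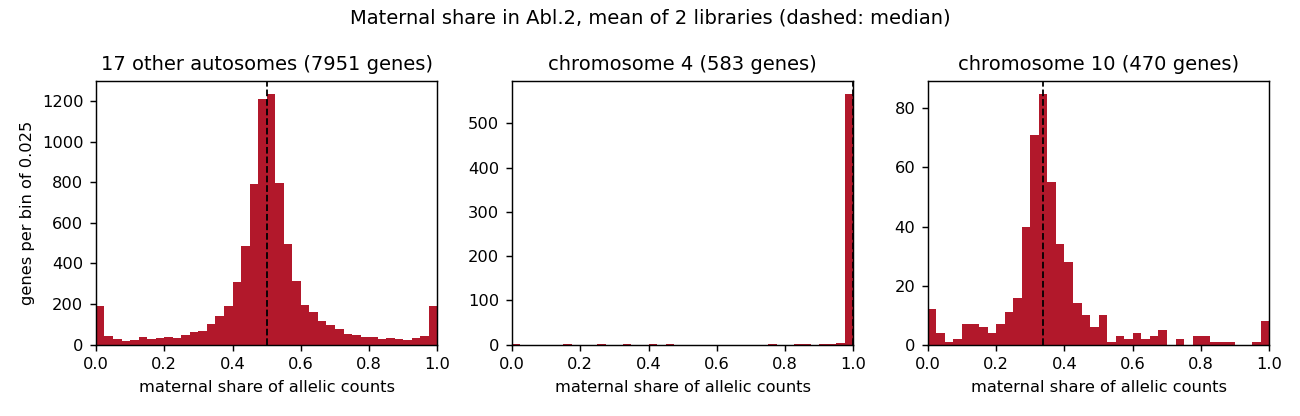
Histograms of the maternal share in Abl.2 (x axis, mean of 2 libraries, no unit) for 7951 genes of the 17 other autosomes, 583 of chromosome 4 and 470 of chromosome 10; the y axis counts genes per bin of 0.025 and the dashed line is the median. The 17 autosomes peak at 0.5 with small modes at either end, chromosome 4 sits near 1 and chromosome 10 near 0.338.

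Strong bias was spread over the 17 autosomes. The share of members with it ran from 5.12% on chromosome 7 to 11.6% on chromosome 3. Median shares per chromosome ran from 0.492 on chromosome 5 to 0.511 on chromosome 13, as means of the 2 libraries. Low coverage went with strong bias: 17.9% of the 888 genes under 100 counts had it, against 2.53% of the 356 genes with the highest coverage. Just inside the limit, 62 genes had 20 or 21 counts in their shallower library and a median share of 0.593, with 14 of strong bias. Just outside, 58 genes with 18 or 19 counts had a median of 0.488, with 14 of strong bias. Runs of at least 3 neighbouring members with the same strong bias occurred 7 times. One held Lynx1, Ly6d and Ly6a of the Ly6 surface protein cluster, with shares from 0.996 to 1.00, and these 3 genes overlap no annotated gene. No gene was free of overlap in the runs of Itga1, Gm49395 and Pelo and of Hlcs, Pigp and Ttc3, where reads may be shared. Whether runs were more frequent than among unrelated genes was not tested.

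Among genes with at least 500 counts in each library, 78 were strongly maternal in both, and the 8 of highest coverage are described. Smad3, which carries TGF-beta signals to the nucleus (chr9:63646767-63757994), had maternal shares of 0.948 and 0.946 in Abl.2 from 29158 and 32884 counts. The Abl.3 libraries had 0.430 and 0.482, and those of Abl.4 had 0.476 and 0.475. The Abl.2 libraries lay far above the other 4, and the allele effect differed by 4.42 ± 0.09 (SE, log2) from Abl.3 and 4.31 ± 0.09 from Abl.4 (edgeR adjusted p = 2.59e-11 and 4.1e-11). Total Smad3 was 146 and 138 TPM in Abl.2 and 10.6 to 16.8 TPM in the other lines.

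Spry1, an inhibitor of receptor tyrosine kinase signalling to RAS (chr3:37639947-37644598), had shares of 0.957 and 0.951 in Abl.2. The Abl.3 libraries had 0.519 and 0.554, and the Abl.4 libraries 0.565 and 0.587. Its abundance was 346 and 307 TPM in Abl.2 and 23.4 to 34.8 TPM elsewhere, so the clone with the strong bias also had the most Spry1. Fam129c (chr8:71597648-71607936) had shares of 0.988 and 0.987 in Abl.2, 0.670 and 0.525 in Abl.3 and 0.782 and 0.699 in Abl.4. Its abundance was 549.9 and 487 TPM in Abl.2 and 15.38 to 41.98 TPM in the other libraries. In all 3 genes the Abl.2 libraries were separate from the rest in both measures. Spry1 and Fam129c each overlap another annotated gene, and whether counting used strand is not given in the sources used here, so reads of a partner cannot be told apart. The same holds for many of the other genes named, among them Lef1, Cnn3, Nfatc3, Tet2, Ikzf3, Phf19, Impact, Pik3cd, Pax5, Agpat3, Plekhg1 and Tbc1d30. Smad3, Wnt10a, Rac2, Rasgrp1, Blk, Xrcc5, Eno1, Clta, D10Jhu81e, Aes and Socs2 overlap no annotated gene.

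Cnn3, an actin-binding calponin, was at 0.999 in both Abl.2 libraries, 0.940 and 0.942 in Abl.3 and 0.902 and 0.880 in Abl.4. All 3 lines leaned to the mother, and Abl.2 exceeded Abl.3 by 5.84 ± 0.20 and Abl.4 by 6.79 ± 0.18 (SE, log2 allele ratio; edgeR adjusted p = 1.38e-09 and 2.94e-10). Nfatc3, a calcium-regulated transcription factor, was at 0.995 in both Abl.2 libraries and between 0.993 and 0.996 in the others, without a called difference (edgeR adjusted p = 0.268 and 0.977). The histone genes Hist1h2ac and Hist1h2ao were at 0.99 and 1.00 in both Abl.2 libraries, and the interferon-inducible GTPase gene Tgtp2 was at 0.984 and 0.985. These 3 have near-identical copies, so reads may have been split between copies by sequence and their shares are uncertain. Hist1h2ao had 0 paternal counts of 7986 and 7955, which allows a paternal share of up to 0.0188% by counting error, and it was listed at 0 TPM in every library. Its allelic totals were 7787 to 7986 in the 6 libraries, and those of Eno1 on chromosome 4 were 82855 to 85807. The libraries held 18362319 to 26881211 allelic counts. Why these totals varied less than depth, and what part this had in the ranking by coverage, was not tested.

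On the paternal side, 70 genes with at least 500 counts in each library were strongly biased in both, and again 8 are described. Lef1, a transcription factor of the Wnt pathway used in early B cells (chr3:131110471-131224356), had maternal shares of 0.0129 and 0.0159 in Abl.2 from 9304 and 9599 counts. Abl.3 had 0.480 and 0.476, and Abl.4 had 0.464 and 0.472. No library of another clone came near the Abl.2 values, and the differences were -5.97 ± 0.08 and -5.91 ± 0.08 (SE, log2; edgeR adjusted p = 1.98e-12 and 3.47e-12). Lef1 abundance was 94.3 and 83.9 TPM in Abl.2, 179 and 164 TPM in Abl.3 and 156 and 150 TPM in Abl.4. On the log2(TPM + 1) scale this was 0.94 ± 0.09 lower than Abl.3 and 0.77 ± 0.09 lower than Abl.4 (SE; limma adjusted p = 0.000504 and 0.00118).

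Cyp4f18, a cytochrome that degrades leukotriene B4, had shares of 0.0548 and 0.0484 in Abl.2, 0.207 and 0.149 in Abl.3 and 0.225 and 0.217 in Abl.4. The direction was paternal in all 6 libraries and stronger in Abl.2 (edgeR adjusted p = 3.09e-06 and 4.48e-08). Enpep, the aminopeptidase that marks mouse pre-B cells, had 6 and 4 maternal counts of 5501 and 6510 in Abl.2. Abl.3 had 0.00145 and 0.00208 and Abl.4 had 0.00988 and 0.00829, and Abl.2 differed from Abl.4 by -3.42 ± 0.28 (SE, log2; edgeR adjusted p = 3.38e-06). The other 5 genes were at most 0.055 in every library of the 3 clones. Serinc3, a membrane lipid scramblase, had Abl.2 shares of 0.0387 and 0.0419, and the G-protein regulator gene Rgs16 had 0.0014 and 0.0013. Wnt10a, a Wnt ligand, was at 0.0135 and 0.0111, and the mitochondrial calcium-binding gene Efhd1 at 0.0101 and 0.0179. H2-Q4, an MHC class I gene with close paralogs and therefore uncertain, was at 0.0311 and 0.0329.

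The 8 genes of moderate bias chosen by coverage leaned to the same parent in all 6 libraries, some of them less in the other clones. The shares of Rac2, a small GTPase of blood cells, were 0.674 and 0.684 in Abl.2 and 0.621 to 0.641 in the other 4 libraries. For Irf8, a transcription factor of B and myeloid cells, they were 0.674 and 0.689 against 0.649 to 0.653. The tubulin gene Tuba1b had 0.757 and 0.789 in Abl.2 and 0.767 to 0.804 elsewhere, so its lines overlapped, and Tedc1, a centriole gene, had 0.721 and 0.742. Vpreb2, a surrogate light chain of the pre-B cell receptor, had 0.178 and 0.182 in Abl.2, 0.163 and 0.159 in Abl.3 and 0.220 and 0.219 in Abl.4. Its near-copy Vpreb1 had 0.487 and 0.491 (adjusted p = 0.0721), and reads shared between the copies make either value uncertain. The aldehyde dehydrogenase gene Aldh2 had 0.338 and 0.323 in Abl.2 and 0.397 to 0.425 in the others. BC035044 had 0.199 and 0.207, and Tgtp1, the near-copy of Tgtp2, had 0.258 and 0.264 in Abl.2, 0.278 and 0.248 in Abl.3 and 0.377 and 0.408 in Abl.4 (edgeR adjusted p = 1.24e-05 for the difference from Abl.4).

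**Figure D2:**
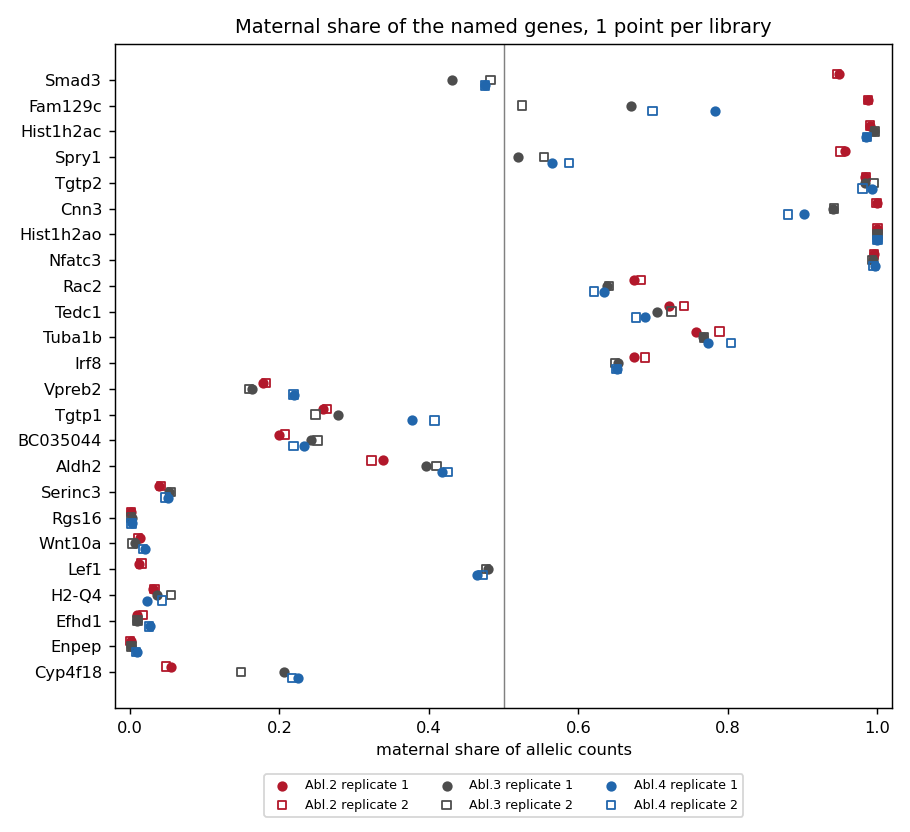
Maternal share (x axis, no unit) of the 24 genes named on the 17 other autosomes, with 1 point per library, colour for the line, filled circles for replicate 1 and open squares for replicate 2. Smad3, Spry1 and Lef1 lie between 0.43 and 0.59 in Abl.3 and Abl.4 and above 0.94 or below 0.02 in Abl.2, whereas Nfatc3, Serinc3 and Rgs16 sit together in all 6 libraries.

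Some strong biases of Abl.2 were shared with the other clones and some were not. Of the 580 genes, 421 had at least 20 counts in each library of Abl.3 and Abl.4. A strong bias to the same parent was present in both other clones for 138 of the 421, 69 on each side. For 90 of them, 56 maternal and 34 paternal, both other clones had shares from 0.3 to 0.7. The rest of the 421 met neither description. Among them, a strong bias to the other parent was seen for 12 in Abl.3 and 16 in Abl.4, 27 genes in all. The allele effect of the 421 differed from Abl.3 in 234 and from Abl.4 in 250, where the background on the 17 autosomes was 17.9% and 13.9% of genes. The median shares of Abl.3 were themselves off balance on some of these autosomes, at 0.448 on chromosome 1, 0.451 on chromosome 5, 0.458 on chromosome 18 and 0.549 on chromosome 17, and the part of this in the counts against Abl.3 was not tested. Because the 421 were chosen for extreme shares in Abl.2, these counts describe them and lend no separate support. Among the 138 with the same bias in all clones, 12 differed from Abl.3 and 20 from Abl.4.

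For most genes where Abl.2 alone had the strong bias, total transcript abundance was lower in Abl.2. These genes were chosen for 1 nearly absent allele in Abl.2 and 2 present alleles in the other clones, so a lower total is partly built into the choice, and the counts against the background describe the genes and lend no separate support. Of the 90 genes, 89 had abundance values (a mean of at least 1 TPM), and limma called 61 lower and 7 higher than in Abl.3 (background on the 17 autosomes 14.5% lower and 38.3% in either direction). Against Abl.4 it called 71 lower and 3 higher (background 19.3% lower and 32.2% in either direction), and both comparisons share the Abl.2 libraries. Both either-direction backgrounds were lower with 1 library left out, as given under the processing. Relative to the median of the 17 autosomes, the median difference was -0.86 against Abl.3 and -0.94 against Abl.4 on the log2(TPM + 1) scale, or 0.553-fold and 0.520-fold. For 119 genes with the same bias in all clones the medians were 0.03 and 0.03. Counted relative to the library's allelic counts on the 17 autosomes (level in counts per 1e+06), the expressed allele of the 56 maternal genes differed from Abl.3 by a median of 0.02 and from Abl.4 by -0.18 (log2 of level + 0.1). For the 34 paternal genes the medians were -0.04 and -0.41.

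Smad3 and Spry1 went against this pattern, with more total RNA in Abl.2. Paternal counts of Smad3, not scaled for depth, were 1513 and 1770 in Abl.2 and 1175 to 1641 elsewhere. Its maternal counts were 27645 and 31114 against 1095 to 1489. For Spry1 the paternal counts were 620 and 796 against 398 to 491, and the maternal counts 13695 and 15361 against 494 to 631. Prkcb, a protein kinase C of B cell receptor signalling, followed the pattern of lower abundance. Its shares were 1.00 and 0.996 in Abl.2 and 0.509 to 0.545 elsewhere. Its abundance was 18.4 and 20.2 TPM in Abl.2, 113 and 108 TPM in Abl.3 and 95.05 and 93.62 TPM in Abl.4, so Abl.2 lay below all 4 other libraries. Prkcb overlaps 8 annotated genes and its share may include their reads. Tet2, which oxidises methylated cytosine, had shares of 0.0036 and 0.0066 in Abl.2 and 0.424 to 0.470 in the other libraries. Its abundance of 3.65 and 3.94 TPM lay above Abl.3 (2.69 and 3.35) and below Abl.4 (7.81 and 8.64). The difference from Abl.4 was called and that from Abl.3 was not (limma adjusted p = 0.00416 and 0.214).

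**Figure D3:**
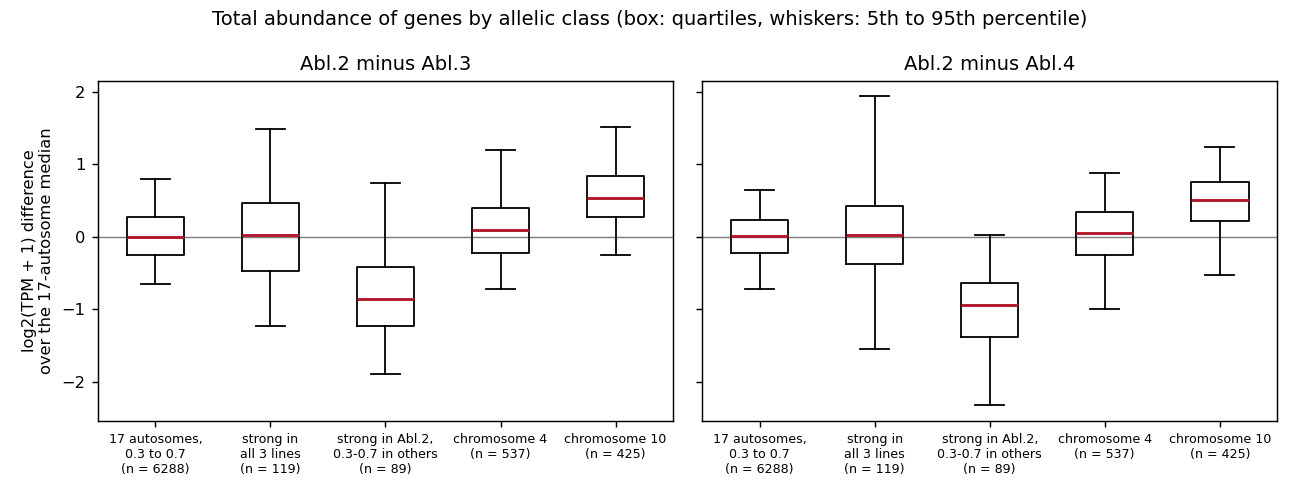
Difference in log2(TPM + 1) between Abl.2 and Abl.3 (left) or Abl.4 (right) over the median of the 17 autosomes (y axis), for 5 sets of genes on the x axis; boxes are quartiles, red lines medians and whiskers the 5th to 95th percentile of genes. Genes strongly biased in Abl.2 and at 0.3 to 0.7 in the others (n = 89) have medians of -0.86 and -0.94, and chromosome 10 (n = 425) has 0.53 and 0.51.

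The gene lists below were read against the 17-autosome background of 21.5% called maternal and 20.6% called paternal. Among 18 B-lineage transcription factors on these chromosomes, 12 were called maternal, 3 paternal and 3 were not called, with a median share of 0.582. Ikzf3, an Ikaros-family factor, was strongly maternal at 0.954 and 0.933, against 0.607 to 0.716 in the other libraries. Erg was at 0.996 in both Abl.2 libraries and at 0.882 to 1.00 elsewhere. Ebf1, a master factor of the B lineage, leaned to the father in Abl.2 at 0.363 and 0.352 and lay between 0.341 and 0.386 in the others, with no called difference (edgeR adjusted p = 0.647 and 0.135). Spi1 was not called at 0.490 and 0.509.

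Pre-B and B cell receptor signalling had 8 maternal, 5 paternal and 7 uncalled genes of 20, with a median share of 0.503. The lowest share was that of Vpreb2, given above. Of the signalling chains, Cd79a was at 0.459 and 0.448 and Cd79b at 0.510 and 0.518. Beside Prkcb, Rasgrp1, an activator of RAS, was strongly maternal at 0.970 and 1.00 with 2.63 and 2.82 TPM, against 0.497 to 0.677 and 6.70 to 11.7 TPM in the other clones. Blk, a Src-family kinase, was maternal at 0.742 and 0.799 with 2.89 and 2.93 TPM. It was at 0.313 and 0.304 with 31.0 and 29.1 TPM in Abl.3, and at 0.576 and 0.559 with 194 and 182 TPM in Abl.4. In Prkcb, Rasgrp1 and Blk, Abl.2 had the least RNA of the clones.

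V(D)J recombination and end joining had 3 maternal, 3 paternal and 9 uncalled genes of 15 and no strong bias. The end-joining factor gene Paxx was at 0.315 and 0.293 and the ligase gene Lig4 at 0.807 and 0.788, and both had shares on the same side in all 6 libraries. Rag1, which cuts antigen receptor genes, was at 0.461 and 0.412 (adjusted p = 0.0111), and its partner Rag2 at 0.513 and 0.532 (adjusted p = 0.401). Xrcc5, the Ku80 end-joining subunit, was at 0.614 and 0.586 in Abl.2 and at 0.00296 and 0.00283 in Abl.4 (edgeR adjusted p = 1.74e-10 for the difference). Among 11 genes of DNA methylation, 4 were maternal, 1 paternal and 6 uncalled. Of the methyltransferases Dnmt1 was at 0.516 and 0.514 (adjusted p = 0.0490), and Dnmt3a and Dnmt3b were not called. Tet2 was the paternal gene, and the methyl-CpG-binding gene Zbtb38 had no paternal count among 494 and 460, which allows a paternal share of up to 0.314%.

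Polycomb repressors had 2 maternal, 6 paternal and 16 uncalled genes of 24. Ezh2, the methyltransferase of the complex, was at 0.416 and 0.406 against 0.415 to 0.442 elsewhere, and Phf19 was strongly maternal at 0.933 and 0.946 against 0.608 to 0.669. Cell cycle and Myc genes had 4 maternal, 3 paternal and 12 uncalled genes of 19 and no strong bias. The inhibitor gene Cdkn1a was at 0.680 and 0.670, and Ccnd2, a D-type cyclin, was at 0.360 and 0.389 against 0.455 to 0.485. Cell death and p53 genes had 6 maternal, 5 paternal and 5 uncalled of 16. There Bcl2 was maternal at 0.851 and 0.808 and Bok strongly maternal, Pmaip1 strongly paternal at 0.0488 and 0.0758, and Trp53 not called at 0.524 and 0.499. JAK-STAT and feedback genes had 5 maternal, 6 paternal and 7 uncalled of 18, with Spry1 as the strong case. The kinase gene Pim1 was at 0.381 and 0.379, and the interleukin 7 receptor gene Il7r at 0.629 and 0.636 against 0.656 to 0.719.

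NF-kB and Toll-like receptor genes had 5 maternal, 4 paternal and 10 uncalled of 19, with no strong bias. Cd180, a Toll-like receptor homologue of B cells, was at 0.693 and 0.803 in Abl.2 and 0.443 to 0.590 elsewhere. Antigen presentation had 8 maternal, 3 paternal and 12 uncalled genes of 23, and H2-Oa was strongly maternal at 0.965 and 0.946. H2-Ab1, an MHC class II chain, had shares of 0.386 and 0.848 at only 0.37 and 0.71 TPM in Abl.2. The libraries disagreed at this low level, so no imbalance could be read (adjusted p = 0.437). Type I interferon genes had 8 maternal, 2 paternal and 13 uncalled of 23, of which Oas1a and Ifi44 were strongly maternal at 1.00 and 0.987, and 0.963 and 1.00.

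Of the imprinted genes, Impact and Zrsr1 are known for expression from the paternal copy. Impact had 1 maternal count in each Abl.2 library, of 556 and 764. Zrsr1 had 0 maternal counts of 97 and 159, which allows a maternal share of up to 1.17% over both. These were the 2 strongly biased genes of 11 measured, both to the father. In Abl.3 and Abl.4 the maternal share of Impact was 0.107 to 0.163, above Abl.2 in every library (edgeR adjusted p = 3.62e-06 and 2.34e-06). Of the other 9 genes, 1 was called maternal, 3 paternal and 5 were not called. Their known parent of expression was not set beside these values, so only Impact and Zrsr1 bear on the parental labels here.

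**Figure D4:**
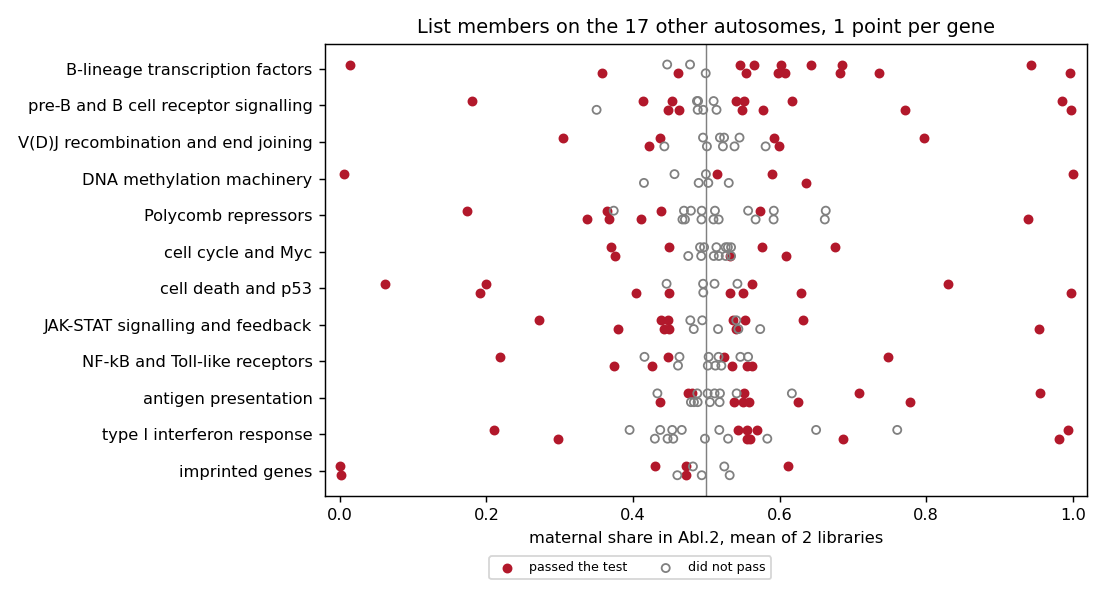
Mean maternal share in Abl.2 (x axis, no unit) of the members of 12 gene lists on the 17 other autosomes, 1 point per gene; filled points passed edgeR's test at an adjusted p under 0.05 and open points did not. Most members lie between 0.4 and 0.7, with single genes at either end of a list.

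Chromosome 4 was almost wholly maternal in Abl.2. Of its 583 members 582 passed the test (99.8%), 576 maternal (98.8%) and 6 paternal (1.03%). The median share was 0.998 in both libraries, and 549 genes were at 0.99 or more. No paternal count was seen in either library for 110 genes, which allows paternal shares from 0.103% to 6.82% by counting error at their depths. Over the members at 0.9 or more, paternal counts made up 0.293% of replicate 1 and 0.239% of replicate 2. Median shares of the chromosome's members were 0.508 in Abl.3 and 0.499 in Abl.4.

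The genes of highest coverage on chromosome 4 were Eno1, the glycolytic enolase, Pik3cd, the leukocyte PI3-kinase subunit, Noc2l and the ribosomal protein gene Rps6. Eno1 had 170 and 156 paternal counts of 82855 and 85720, a share of 0.998 in both libraries against 0.527 to 0.534 elsewhere. Pik3cd was at 0.998 in both Abl.2 libraries and at 0.417 to 0.450 in the others. The B-cell factor genes Pax5 and Bach2, the kinase genes Lyn and Jak1 and the tumour suppressor gene Cdkn2a lie on the chromosome too, and each was at 0.994 or more in both Abl.2 libraries. Total output was not lower: the median abundance of chromosome 4 members over that of the 17 autosomes was 0.09 above Abl.3 and 0.05 above Abl.4 on the log2(TPM + 1) scale. Eno1 was at 1684 and 1640 TPM in Abl.2 and 1719 to 1925 TPM elsewhere, without a called difference. Pik3cd was at 396 and 376 TPM in Abl.2 against 224 to 243, and Noc2l at 148 and 144 against 91.8 to 111. Rps6 was at 1185 and 1328 TPM against 976 to 1099. In limma's test Pik3cd and Noc2l were called higher than in both clones, and Rps6 only against Abl.4. The maternal counts of chromosome 4, as a percentage of the maternal counts of the 17 autosomes, stood at 17.6 ± 0.0513 in Abl.2 (SD, n = 2). Abl.3 had 8.92 ± 0.0722 and Abl.4 had 8.97 ± 0.107. Maternal counts were 1.97 and 1.96 times those of Abl.3 and Abl.4 on this scale. The allele effect differed from Abl.3 for 97.3% of the tested members and from Abl.4 for 97.9%.

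On chromosome 4, 10 members were under 0.9. Of these, 5 lay among the 18 members between Dnajb5 and Clta (chr4:42949814-44032846), where 8 genes were at 0.99 or more. Clta, a clathrin light chain, had shares of 0.469 and 0.443 in Abl.2, 0.206 and 0.227 in Abl.3 and 0.221 and 0.231 in Abl.4. Dnajb5, a heat shock co-chaperone, had 0.325 and 0.352 in Abl.2 against 0.109 to 0.216. Hint2, a mitochondrial hydrolase, had 0.759 and 0.768 against 0.315 to 0.453, and Glipr2 had 0.847 and 0.835 against 0.446 to 0.529. All 4 were higher in Abl.2 than in any other library, with called differences. Against equal counts, the paternal calls of Clta and Dnajb5 (edgeR adjusted p = 0.0182 and 0.00389) were lost without 1 Abl.2 library, at 0.28 without replicate 2 for Clta and 0.0669 without replicate 1 for Dnajb5. Fam221b, also in the window, was not called at 0.371 and 0.442 from 35 and 43 counts. The other 5 were Gm12666 at 0.267 and 0.272, Gm13166 at 0.174 and 0.160, Zfp981 at 0 and 0.0270, Zfp991 at 0.781 and 0.929 and Prkcz at 0 and 0.0313. None of these 5 had more than 180 counts in a library. Mean shares in Abl.3 and Abl.4 were 0.235 and 0.279 for Gm12666, 0.145 and 0.287 for Gm13166, 0 and 0.00481 for Zfp981 and 0 and 0 for Prkcz, with no called difference, so these 4 leaned to the father in all 3 clones.

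**Figure D5:**
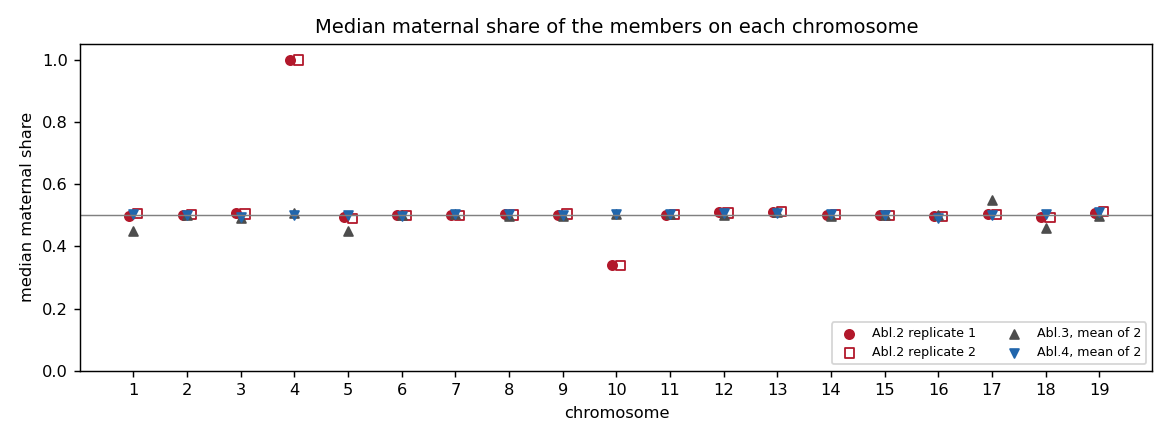
Median maternal share (y axis, no unit) of the members on each autosome (x axis), with filled circles and open squares for Abl.2 replicates 1 and 2 and triangles for the mean of the libraries of Abl.3 and Abl.4. Chromosome 4 lies at 0.998 and chromosome 10 at 0.339 and 0.337 in Abl.2, and the other 17 lie between 0.490 and 0.513 in Abl.2, whereas Abl.3 runs from 0.448 on chromosome 1 to 0.549 on chromosome 17.

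Chromosome 10 leaned to the father as a whole in Abl.2. The median share was 0.339 and 0.337 in the libraries, near 1 maternal to 2 paternal counts, and 326 of 470 genes lay from 0.25 to 0.42. The test called 403 (85.7%), 373 paternal (79.4%) and 30 maternal (6.38%). In Abl.3 and Abl.4 the median was 0.504 in each. Among genes at 0.3 to 0.7 in the other clone, the log2 odds of the maternal share were lower in Abl.2 by a median of -0.99 against Abl.3 (375 genes) and -0.98 against Abl.4 (388 genes). The allele effect differed in 318 of the 375 towards the father and 4 towards the mother against Abl.3, and in 323 and 6 of the 388 against Abl.4, where 81.3% and 79.6% of all tested chromosome 10 genes differed. The paternal counts of the chromosome, relative to paternal counts of the 17 autosomes, were 1.88 times those of Abl.3 and 1.79 times those of Abl.4. The maternal counts were 0.936 and 0.927 times. Total abundance was higher as well, with a median of 0.53 over Abl.3 and 0.51 over Abl.4 on the log2(TPM + 1) scale relative to the 17 autosomes, or 1.44-fold and 1.42-fold.

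Eef2, the translocase of protein synthesis, had the highest coverage on chromosome 10, with shares of 0.333 and 0.326 in Abl.2 and 0.489 to 0.508 in the other libraries. Its abundance was 1754 and 1702 TPM in Abl.2 and 1130.0 to 1241 TPM elsewhere. Vpreb3, a pre-B cell receptor chaperone, was at 0.304 and 0.305 against 0.439 to 0.463, and Psap, the saposin precursor, was at 0.296 and 0.292 against 0.457 to 0.467. Tcf3, the E2A factor of B-cell development, was at 0.375 and 0.369 against 0.537 to 0.556. Cdk4 was at 0.437 and 0.441 against 0.577 to 0.611. In each of these the Abl.2 libraries were lower than all others.

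Against the chromosome's own median share, 198 of 470 genes differed (42.1%, edgeR adjusted over chromosome 10), 107 above and 91 below. Fewer passed when either Abl.2 library was left out, as given under the processing. D10Jhu81e was at 0.995 and 0.994 in Abl.2 and 0.445 to 0.492 in the others, the reverse of its chromosome (edgeR adjusted p = 2.42e-11). Its abundance was 40.9 and 43.1 TPM against 74.98 to 88.7 TPM elsewhere. Agpat3, an acyltransferase gene of lipid synthesis, was at 0.879 and 0.846 in Abl.2, 0.471 and 0.518 in Abl.3 and 0.783 in both Abl.4 libraries. The sulfotransferase gene Chst3 was at 0.682 and 0.677, below its 0.792 to 0.812 in the other clones. Pttg1ip was at 0.643 and 0.670, between Abl.3 (0.706 and 0.712) and Abl.4 (0.439 and 0.457).

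Below the median, the co-repressor gene Aes was at 0.0284 and 0.0202 in Abl.2 and at most 0.0104 in the other libraries. Plekhg1 was at 0.0176 and 0.0201 against 0.405 and 0.383 in Abl.3 and 0.148 and 0.164 in Abl.4. The ganglioside synthase gene B4galnt1 was at 0.151 and 0.147 against 0.403 to 0.485. Socs2, a feedback inhibitor of JAK-STAT signalling, was at 0.226 and 0.231 in Abl.2, 0.243 and 0.245 in Abl.3 and 0.349 and 0.343 in Abl.4, with 1408 and 1476 TPM in Abl.2 and 672 to 754 TPM elsewhere. In all, 28 genes of chromosome 10 had a strong bias (5.96%, against 7.29% on the 17 autosomes), 9 maternal and 19 paternal. The chromosome's median share of 0.338 lay nearer the paternal limit. Tbc1d30 was among the 28 genes with 1 and 0 maternal counts of 358 and 460 in Abl.2, against 28 of 28 and 23 of 23 in Abl.3. Its Abl.4 shares were 0.514 and 0.426, and at 0.09 to 1.16 TPM it was low in every library. Ank3 and Nhsl1, also strongly paternal in Abl.2, were at 0.0068 or less in every library of Abl.3 and Abl.4.

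The authors' deposited table gives a maternal fraction with confidence limits for each line, and its Abl.2 values were set beside these shares. For the 7546 genes of the 17 autosomes with a value, the median absolute difference from the share computed here was 0.0028, and 7 genes differed by over 0.05. The limits in the authors' deposited table excluded 0.5 for 2194 genes, of which edgeR also called 2183. It called a further 1022 whose limits held 0.5. On chromosome 10 the authors' deposited table had 372 of 448 genes with limits excluding 0.5, 352 of them paternal.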

How the data were processed

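RNA-seq of 3 clones with 2 libraries each was analysed. Per the labels' protocols, RNA was isolated on beads, DNase-treated and made into SMART-seq v4 libraries, which carry no molecular identifiers, so limits from counts of 0 cover counting error only. The deposited allele table holds whole-number counts per gene and parental allele, which the authors took at SNP positions, per the file headers. The deposited abundance table holds TPM, which keep no depth, made with DESeq2 per the file headers. The authors' remaining table holds the fraction of maternal counts with confidence limits after replicates were averaged, per the file headers. The submitters' processing notes name STAR 2.5.4a, SAMtools, GATK and DESeq2 and the builds GRCm38, mm10 and GRCh37 without a role. The SNP list, annotation, strand use and confidence level are not given in the sources used here. Starts matched GENCODE M21 (GRCm38) for 98.0% of 19338 genes, and gene coordinates are the authors'. RefSeq (GRCm38.p6) promoters were matched by symbol, Ensembl identifier or synonym for 78.7% of the members of the 17 autosomes and 72.2% of the strongly maternal ones. A comparison of CG content between classes is therefore void and no class values are given.

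The 6 libraries were fitted together in edgeR 4.0.16 (R 4.3.3, glmQLFit and glmQLFTest). Each library had its own intercept, which pairs its alleles, each line had its own allele effect, and the library total served as size for both alleles. The effect of Abl.2 was tested against equal counts, against Abl.3 and Abl.4 (20 counts in each library compared) and, on chromosome 10, against its median share. The p-values were adjusted by the Benjamini-Hochberg method across autosomes and X, and a gene was called at an adjusted p under 0.05. Abundance was tested with limma 3.58.1 on log2(TPM + 1) where a gene averaged 1 TPM or more, a scale that understates changes of low genes. The steps were tested on simulated data. In the allelic simulation every gene had the same spread beyond counting noise, so it does not show how many of the calls here were false.

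Named genes were the 8 of highest coverage on each strong side and 4 on each moderate side (shares of 0.65 to 0.85 or 0.15 to 0.35), with at least 500 counts per library and no Gm, Rik or pseudogene-like symbol. On chromosome 4 they were the 4 of highest coverage and up to 8 under 0.9. On chromosome 10 they were 3 by coverage and the 4 with the smallest p on each side of its median. From the lists, 2 to 4 genes with the smallest p were eligible. Other list members were chosen after their values were seen, as were Zfp991, Prkcz, Prkcb, Tet2, Tbc1d30, Ank3, Nhsl1 and the genes of runs. The members, lists and tests were chosen with earlier results of these data known. Alternatives were other coverage minimums, DESeq2 1.42.0, other scalings, nulls and blocks, and leaving out libraries.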

Additional observations from a re-analysis of the deposited data

Results flagged for a closer look

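The allele effect differed between clones, by the edgeR test of the difference, for 1366 genes of the 17 autosomes between Abl.2 and Abl.3 and for 1063 between Abl.2 and Abl.4. The median share of Abl.3 was 0.448 to 0.458 on chromosomes 1, 5 and 18 and 0.549 on chromosome 17, and the part of this in the first count was not tested. Of the 24 genes named there, 9 differed by at least 1 on the log2 scale from at least 1 clone. Differences of the log2 allele ratio are Abl.2 minus the other line. Smad3 differed by 4.42 from Abl.3 and 4.31 from Abl.4, Spry1 by 4.16 and 3.92, Fam129c by 5.69 and 4.77 and Cnn3 by 5.84 and 6.79, all with a higher maternal share in Abl.2. Lef1 differed by -5.97 and -5.91 and Cyp4f18 by -2.0 and -2.39. Against 1 clone, Enpep differed by -3.42 from Abl.4, Hist1h2ac by -1.36 from Abl.3 and Wnt10a by 1.25 from Abl.3. The shares of Hist1h2ac are uncertain because histone genes have near-identical copies.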

How the results depend on the processing

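Alternatives were counted for the 47 genes picked by coverage, by share on chromosome 4 or by p on chromosome 10. Genes named only from the lists, or after their values were seen, such as Tet2 and Prkcb, were not among them. Of 562 values of these 47 genes under the alternatives, 559 kept direction and call, 3 lost the call and none reversed. Clta lost it without the replicate block (adjusted p = 0.0951) and without Abl.2 replicate 2 (0.28), and Dnajb5 without Abl.2 replicate 1 (0.0669). Of 174 counts and medians under the alternatives, 135 stayed within 1.5 times the reported count or, for medians of abundance, within the spread between libraries. With no filter on low TPM, the medians of chromosomes 4 and 10 over the 17 autosomes were 0, since genes at 0 TPM entered. Counts of unequal genes on the 17 autosomes fell from 3347 to between 2227 and 2300 when 1 Abl.2 library was left out (maternal 1136 to 1166, paternal 1091 to 1134), and to 1963 (1012 maternal, 951 paternal) at a share at least 0.1 from 0.5. They were 2649 without the replicate block and 3249 with the replicate number as a block on the allele effect. Deviations of same-numbered libraries correlated by -0.018, -0.0476 and 0.0307 between lines, so little deviation was common to a number. Whether a number marks a shared preparation was not tested. Genes off the chromosome 10 median numbered 127 to 136 without 1 Abl.2 library, against 198. Differences from Abl.3 and Abl.4 fell to 484 and 454 genes at a share difference of at least 0.2. Strongly paternal genes of chromosome 10 numbered 33 at limits of 0.15 and 0.85. Leaving out 1 library, with a lone library assumed to vary like the others, gave 1935 to 2241 abundance calls against Abl.3 (3565 with all) and 1566 to 2673 against Abl.4 (2995 with all). Low counts limit single genes: 888 members of the 17 autosomes had under 100 counts, and 298 of them were called.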

Other observations

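Some members had many allelic counts and no abundance. Of 8796 members listed in the abundance table, 57 were at 0 TPM in both Abl.2 libraries, and 14 of those had a mean coverage of at least 500 allelic counts. Pde6h had 8990 and 10533 allelic counts with shares of 0.494 and 0.507, and Hist1h2ao had 7986 and 7955. On chromosome 4, Samd11 had 3564 and 4001 allelic counts and shares of 0.998 and 0.999, like its neighbours. Pde6h, Hist1h2ao and Samd11 overlap other annotated genes, and how each table assigned shared reads was not tested.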
